A study of Mus musculus with 14 samples.

Results

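Croton oil ears of LC-DTA mice were compared with croton oil ears of LC-DTR mice, 4 samples against 4, across the transcriptome. These 8 samples are part of a series of 14 whole ear RNA-seq samples, the others being 3 LC-DTA and 3 LC-DTR ears painted with vehicle. Every gene with at least 1 TPM (a transcript level scaled to gene length and to the library's total) in at least 4 of the 8 samples was tested, which left 14090 of 24035 genes. All differences below are LC-DTA minus LC-DTR on the log2(TPM + 1) scale, so a value of 1 is a doubling for a well expressed gene and understates the change of a gene near 1 TPM. A gene is called higher or lower when its Benjamini-Hochberg adjusted p from limma is under 0.05.

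In LC-DTA mice Langerhans cells are ablated long-term. In LC-DTR mice they are ablated short-term, with diphtheria toxin (DT) given 3 days earlier. Both sides of each ear received 20 μl of 1% croton oil in acetone and olive oil, or the acetone and olive oil vehicle alone, and tissue was taken at 6 hours. All 4 groups therefore lack Langerhans cells by design, and no ear with an intact Langerhans cell compartment was analysed here. Genotype, DT administration and the length of time without Langerhans cells differ together between the groups and cannot be told apart. The promoter driving either transgene, the strain, the sex and the age of the animals were not stated in the sources used here. Whether each sample is its own animal is not stated, and p-values measure only the spread between these samples, which may be technical. The LC-DTR croton oil samples carry consecutive label numbers, whereas the LC-DTA croton oil samples carry numbers from 2 separate ranges.

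Langerhans cells are the antigen-presenting dendritic cells of the epidermis, marked by langerin (Cd207), and they maintain themselves in the tissue. Croton oil is an irritant whose phorbol esters activate protein kinase C in keratinocytes and other skin cells, which leads within hours to cytokine and chemokine release, vascular leak and entry of neutrophils and monocytes. Whole ear RNA mixes epidermis, dermis, cartilage, muscle, nerve, vessels and immune cells, so fewer cells of a type and less RNA per cell cannot be told apart.

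The deposited values keep no read depth, which is unknown. Between 13733 and 14108 genes reached 1 TPM per sample. The first principal component of the 8 samples carried 70.8% of the variance and separated the genotypes. The second carried 11.8% and set LC-DTR samples 2 and 3 apart from LC-DTR samples 1 and 4, and the values without either pair are given beside many of the results they move. Pearson correlations across genes were 0.990 to 0.995 within LC-DTA, 0.987 to 0.995 within LC-DTR and 0.957 to 0.974 between them. Cd207 lay below the filter, at 0.405, 0.468, 0.722 and 0.520 TPM in LC-DTA and 1.88, 0.883, 0.362 and 1.59 TPM in LC-DTR samples. Of the vehicle samples, LC-DTR replicate 3 stood apart in genes named below, for example Top2a, at 16.2, 18.3 and 34.5 TPM in the 3 LC-DTR vehicle ears.

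Of the 14090 genes, 7102 (50.4%) were called, 4626 higher (32.8%) and 2476 lower (17.6%) in LC-DTA ears. The levels of the 4 LC-DTA samples did not overlap those of the 4 LC-DTR samples for 4232 genes that were higher (30.0%) and 2241 that were lower (15.9%). A call together with a 2-fold difference was reached by 501 higher genes (3.56%) and 215 lower genes (1.53%). The median difference over all genes was 0.09. The share of calls that were higher, 65.1%, depended on scaling: with median ratio scaling 3390 genes were higher and 3496 lower, and with quantile normalization 3444 and 3455. With so many genes called, a list of genes is read below against these percentages, by its counts and its median.

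**Figure D1:**
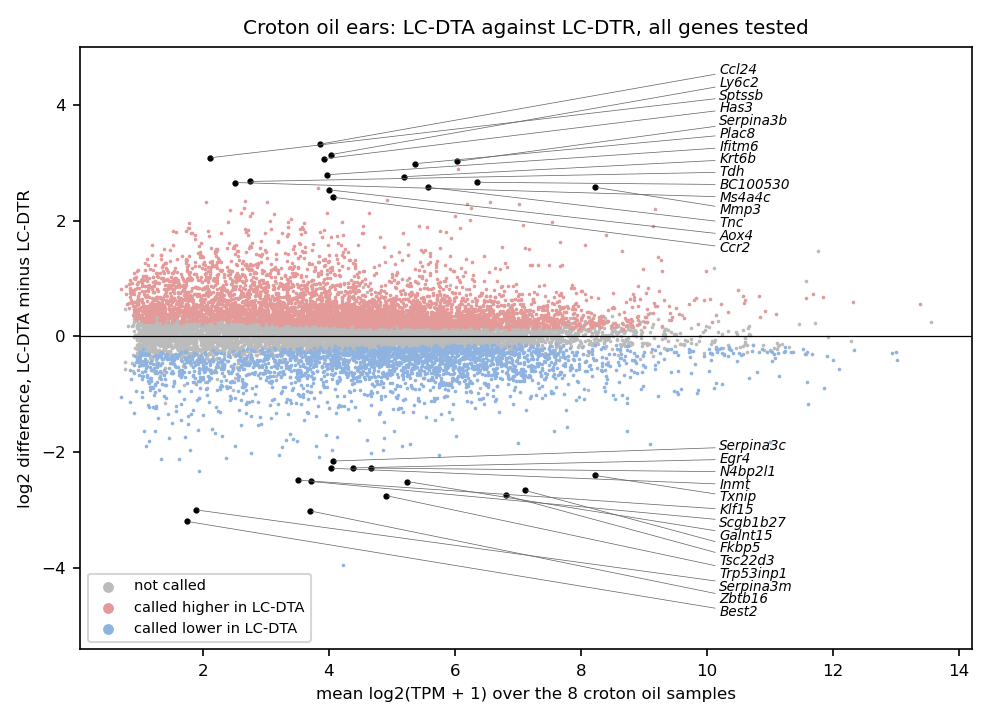
Log2 difference (LC-DTA minus LC-DTR after croton oil, vertical axis) against mean log2(TPM + 1) over the 8 samples (horizontal axis) for the 14090 genes tested; red points were called higher, blue points lower and grey points not called. The 29 labelled genes (black), from the largest increases and decreases, reach from -3.20 for Best2 to 3.32 for Ccl24.

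Among the 15 genes with the largest decreases in LC-DTA ears were the glucocorticoid-regulated genes Fkbp5, Tsc22d3, Zbtb16 and Klf15. The 15 decreases, like the 15 largest increases, were picked only among genes whose groups did not overlap. Their separation was thus fixed in advance. Fkbp5 (chr17:28399094-28517527, GRCm38), a co-chaperone that binds the glucocorticoid receptor complex and is itself induced by the receptor, was at 50.7, 45.9, 52.0 and 69.9 TPM in the LC-DTA samples and at 333, 369.7, 332 and 348 TPM in the LC-DTR samples. The difference was -2.66 ± 0.11 (SE, adjusted p = 6.14e-06), 6.30-fold lower in LC-DTA on the TPM + 1 scale. Tsc22d3, which encodes the glucocorticoid-induced leucine zipper, was at 41.2, 37.2, 39.6 and 52.6 TPM in LC-DTA and 396, 392, 209 and 217 TPM in LC-DTR ears. All 4 LC-DTA samples were below all 4 LC-DTR samples, with LC-DTR samples 1 and 2 the highest of all. Zbtb16, a zinc finger repressor, was lower by a difference of -3.01 ± 0.20, with 2.31, 2.97, 4.28 and 5.34 TPM against 31.4, 45.5, 35.5 and 33.0 TPM. Klf15, a Krüppel-like factor of fasting metabolism, differed by -2.48 ± 0.14, at 3.22, 3.28, 3.71 and 5.48 TPM against 26.1, 29.7, 24.1 and 24.8 TPM.

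Of the 19 tested genes of the glucocorticoid response list, 17 were lower, none was higher (1 without LC-DTR replicate 2) and 2 were not called, with a median of -1.17 (all genes 0.09), against 17.6% of all genes called lower. Of these 19, 15 were lower without overlap between the groups, against 15.9% of all genes. The mean log2(TPM + 1) of the list's members was 5.25 to 5.50 in LC-DTA and 6.39 to 6.83 in LC-DTR croton oil ears, and 5.26 to 5.50 and 5.28 to 5.78 in the vehicle ears. LC-DTR croton oil ears thus stood above the other 3 groups. Under vehicle, where 5.50% of all genes were called lower, 3 of the 19 were lower and none higher, and 13 had a difference after croton oil that was lower than that under vehicle by its own test, against 12.7% of all genes (12 of 19 without LC-DTR vehicle replicate 3). Fkbp5, for example, was at 61.5, 72.4 and 67.2 TPM in LC-DTA and 94.5, 138 and 54.6 TPM in LC-DTR vehicle ears, a difference of -0.41 (adjusted p = 0.22). Without LC-DTR vehicle replicate 3 the vehicle difference was -0.76 and called (adjusted p = 0.00534). Its difference of differences was -2.24 (adjusted p = 0.000586).

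The circadian clock list overlaps this group through Per1, a core repressor of the clock and a direct glucocorticoid target. Per1 was at 42.0, 30.3, 30.2 and 47.4 TPM in LC-DTA and 109, 109, 88.0 and 97.3 TPM in LC-DTR croton oil ears (-1.43 ± 0.15, adjusted p = 7.58e-05). Of the 20 tested clock genes 12 were lower, against 17.6% of all genes, and none was higher, with a median of -0.53. Lower members besides Per1 included the repressor Cry2 (-0.85 ± 0.08), the nuclear receptor Nr1d1 (-0.87 ± 0.08) and the activator Npas2 (-1.13 ± 0.13). Nr1d1 held 101, 96.2, 82.1 and 86.7 TPM in LC-DTA and 155, 159.7, 186 and 170.5 TPM in LC-DTR samples, and neither it nor Cry2 overlapped between groups. Without LC-DTR replicate 4, 1 clock gene was higher. Under vehicle 3 clock genes were called higher and 1 lower, against 19.2% and 5.50% of all genes; without LC-DTR vehicle replicate 3, 1 was higher and none lower. Cry2 was one of those with the opposite sign there (0.40, adjusted p = 0.0218), a call lost without that replicate (0.35, adjusted p = 0.0600), and its difference of differences was -1.25 (adjusted p = 0.000234). The hour of the day at which each ear was taken is not given in the sources used here and its part was not tested.

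The 250 bases before the transcription start of Fkbp5, Klf15 and Per1 are shown because these genes belong to the glucocorticoid and clock lists and each holds the E-box CACGTG, the palindromic site bound by clock activators. The windows are from RefSeq on GRCm38.p6, at chr17:28486150-28486399 on the minus strand, chr6:90462326-90462575 on the plus strand and chr11:69098699-69098948 on the plus strand, each written 5′ to 3′ along its gene with the E-box, which Klf15 holds at 2 places, in capitals. Per1 has 2 windows in the table and the one with a match is shown.
Fkbp5: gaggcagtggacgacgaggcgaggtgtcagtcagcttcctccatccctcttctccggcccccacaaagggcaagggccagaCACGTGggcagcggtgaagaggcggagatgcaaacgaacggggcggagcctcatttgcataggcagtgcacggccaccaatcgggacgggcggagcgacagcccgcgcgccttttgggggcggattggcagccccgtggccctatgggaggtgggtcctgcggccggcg
Klf15: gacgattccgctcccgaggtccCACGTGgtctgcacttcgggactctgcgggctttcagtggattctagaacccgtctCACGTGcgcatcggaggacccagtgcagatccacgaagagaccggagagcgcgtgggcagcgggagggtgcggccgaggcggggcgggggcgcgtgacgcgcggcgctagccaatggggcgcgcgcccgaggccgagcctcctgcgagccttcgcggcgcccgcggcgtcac
Per1: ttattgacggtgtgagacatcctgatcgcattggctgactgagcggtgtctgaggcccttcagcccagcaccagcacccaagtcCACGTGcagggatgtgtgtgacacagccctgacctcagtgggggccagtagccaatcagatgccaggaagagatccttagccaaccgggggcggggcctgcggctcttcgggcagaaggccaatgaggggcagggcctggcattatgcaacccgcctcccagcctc
CACGTG, which reads the same on both strands, was found in 5 of the 26 windows of the 16 glucocorticoid list members with a window (19.2%), in 6 of 21 windows of 16 clock genes (28.6%) and in 6.02% of all 32851 windows. The glucocorticoid response element, read as GNACA, any 3 bases and TGTNC with N any base, and searched on both strands, was in 2 of the 26 glucocorticoid list windows (7.69%, the promoters of Mt1 and Sgk1) and in 0.387% of all windows. The 2 lists share Per1. A match is only a run of letters, and the window is short.

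Most listed Serpina3 serine protease inhibitors, from a cluster of near-identical genes on chromosome 12 whose reads may be shared between copies, were also lower. Of the 8 listed members 6 were lower, against 17.6% of all genes, and none was higher, with a median of -1.26. These counts leave out Serpina3b of the same cluster, which was higher. Serpina3m was at 0.485, 0.173, 0.172 and 0.479 TPM in LC-DTA and 12.9, 9.79, 7.62 and 8.43 TPM in LC-DTR ears (-2.9960 ± 0.16, adjusted p = 6.14e-06). Serpina3n, an acute phase inhibitor of neutrophil and mast cell proteases, was at 54.2, 63.6, 75.6 and 77.0 TPM against 369, 200.01, 195 and 242 TPM (-1.85 ± 0.19), and Serpina3c at 7.11, 6.64, 6.24 and 7.76 TPM against 37.2, 37.4, 34.0 and 28.9 TPM (-2.15 ± 0.10). No sample of either gene crossed between the groups, which the naming rule required for Serpina3c. Serpina3b, which is not among those 8, went the other way: it held 211, 191, 204 and 149 TPM in LC-DTA and 34.4, 15.1, 15.8 and 28.6 TPM in LC-DTR ears (3.03 ± 0.25), and was also higher under vehicle (1.88, adjusted p = 0.00406).

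Of 19 complement and acute phase genes 6 were higher and 5 lower (median -0.18), against 32.8% and 17.6% of all genes. The share of higher genes was thus close to that of all genes. The higher members included the anaphylatoxin receptors C5ar1 (0.90 ± 0.13) and C3ar1 (0.92 ± 0.15) and complement factor Cfb (0.75 ± 0.14). The lower members were the acute phase proteins Orm1 (-0.91 ± 0.07), Orm2 (-0.41 ± 0.11), Saa2 (-1.63 ± 0.29), Hp (-0.58 ± 0.13) and Lcn2 (-0.83 ± 0.28). Orm1 was at 372, 337, 356 and 386 TPM against 715, 734, 611 and 679 TPM, without overlap. Hp and Lcn2 overlapped between groups, and the call of Lcn2 was lost without LC-DTR samples 1 and 4 (adjusted p = 0.227). The call of Orm2 was lost without LC-DTR samples 2 and 3 (adjusted p = 0.0617). The count of 5 was 3 without LC-DTA samples 3 and 4 and without LC-DTA samples 1 and 2, and 8 with quantile normalization.

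Further genes among the 15 largest decreases had various functions. Txnip, the thioredoxin-binding inhibitor of glucose uptake, was at 135, 133, 127 and 120.1 TPM in LC-DTA and 885, 1013, 442 and 549 TPM in LC-DTR samples (-2.40 ± 0.23, adjusted p = 5.09e-05). Trp53inp1, a p53-induced nuclear protein, was at 11.6, 9.62, 8.38 and 13.1 TPM against 67.5, 119, 59.2 and 72.3 TPM (-2.75 ± 0.20). Best2, a bestrophin chloride channel, was at 0.166, 0.130, 0.0322 and 0.144 TPM against 6.59, 15.1, 9.38 and 7.67 TPM (-3.20 ± 0.20). For Galnt15, an O-glycosylation enzyme, the difference was -2.51 ± 0.17. It was -2.28 ± 0.34 for the indolethylamine methyltransferase Inmt, -2.27 ± 0.13 for N4bp2l1 and -2.27 ± 0.15 for the immediate early factor Egr4. Scgb1b27, a secretoglobin with close copies, differed by -2.50 ± 0.19. The groups did not overlap for any of these genes, since the naming rule required it.

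**Figure D2:**
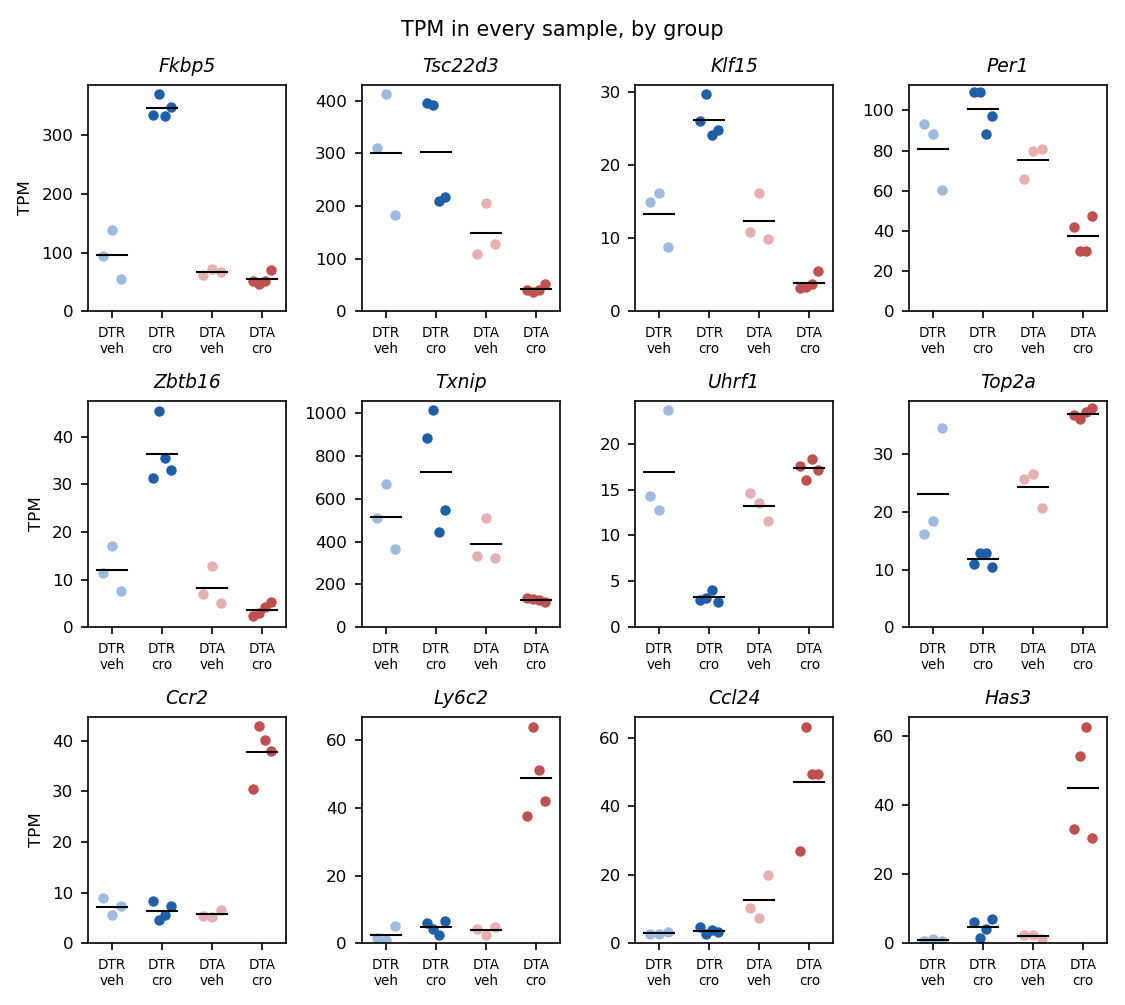
TPM (vertical axis, from 0) of 12 genes in every sample of the 4 groups (DTR veh, LC-DTR vehicle; DTR cro, LC-DTR croton oil; DTA veh, LC-DTA vehicle; DTA cro, LC-DTA croton oil); each point is a sample and each bar a group mean. Fkbp5 is highest in the 4 LC-DTR croton oil ears (333, 369.7, 332 and 348 TPM), where Uhrf1 is lowest, and Ccr2 is highest in the 4 LC-DTA croton oil ears (30.5, 42.9, 40.1 and 38.0 TPM).

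Genes of DNA replication and cell division were higher in LC-DTA ears. Uhrf1, which copies DNA methylation at replication forks, was at 17.6, 16.1, 18.4 and 17.1 TPM in LC-DTA and 3.02, 3.23, 4.06 and 2.71 TPM in LC-DTR ears (2.11 ± 0.10, adjusted p = 6.14e-06). The replicative helicase subunit Mcm5 was at 17.3, 17.8, 20.7 and 19.4 TPM against 3.75, 4.81, 4.998 and 3.84 TPM (1.89 ± 0.10). The spread within each group was small beside these gaps. Mcm2 (1.76 ± 0.10) and Mcm3 (1.11 ± 0.08) of the same helicase and the polymerase subunit Pold1 (1.25 ± 0.08) followed. Of 25 tested S phase genes, 23 were higher and none was lower (median 0.87), against 32.8% of all genes called higher.

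All 22 tested mitosis genes were higher, against 32.8% of all genes, with a median of 1.24. None of the 22 overlapped between the groups, against 30.0% of all genes higher without overlap. Top2a, the topoisomerase that untangles chromosomes, was at 36.8, 35.98, 37.2 and 37.9 TPM in LC-DTA and 10.9, 12.8, 12.9 and 10.5 TPM in LC-DTR ears (1.58 ± 0.08, adjusted p = 6.14e-06). The mitotic kinase Cdk1 differed by 1.62 ± 0.12, cyclin A2 (Ccna2) by 1.59 ± 0.14, the proliferation marker Mki67 by 1.51 ± 0.13 and the cytokinesis scaffold Anln by 1.25 ± 0.12. Mki67 was at 19.1, 17.2, 16.3 and 16.2 TPM against 5.02, 6.10, 6.86 and 3.98 TPM. The lowest counts over all alternatives were 17 of the S phase list and 19 of the mitosis list.

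In vehicle ears the same lists looked different. None of the 25 S phase genes was higher and 3 were lower (median -0.16; 1 higher, 2 lower and a median of -0.0027 without LC-DTR vehicle replicate 3), and 22 had a called difference of differences, all positive, against 10.9% of all genes. The summed level of the S phase list was 612 to 705 TPM in LC-DTA and 376 to 408 TPM in LC-DTR croton oil ears, and 494 to 539.7 and 498 to 663 TPM in the vehicle ears. The LC-DTR croton oil ears were thus the low group of the 4. For mitosis none of 22 was called under vehicle and 15 had a positive difference of differences. LC-DTR vehicle replicate 3, with the highest mitosis level of its group, bears on both counts: without it 12 mitosis genes were higher in LC-DTA under vehicle and 12 had a called difference of differences, while the S phase count of 22 was again 22.

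The promoters of Uhrf1 and Mcm5 are shown because these are the 2 S phase genes with the smallest p and both match the motif TTTNNCGC. These letters, with any base at N, were read as a loose form of the site of E2F factors, which switch on S phase genes. A match does not show that a factor binds. The 250 bases before the start are from RefSeq on GRCm38.p6, at chr17:56303087-56303336 on the plus strand and chr8:75109259-75109508 on the plus strand, with the motif on either strand in capitals. Uhrf1 has 2 windows in the table and the one with a match is shown. The capitals of Mcm5 join 2 overlapping matches on opposite strands.
Uhrf1: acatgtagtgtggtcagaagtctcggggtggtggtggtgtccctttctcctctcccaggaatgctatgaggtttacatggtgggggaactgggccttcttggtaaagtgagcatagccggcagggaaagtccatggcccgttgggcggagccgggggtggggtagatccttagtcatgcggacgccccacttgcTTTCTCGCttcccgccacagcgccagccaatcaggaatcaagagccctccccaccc
Mcm5: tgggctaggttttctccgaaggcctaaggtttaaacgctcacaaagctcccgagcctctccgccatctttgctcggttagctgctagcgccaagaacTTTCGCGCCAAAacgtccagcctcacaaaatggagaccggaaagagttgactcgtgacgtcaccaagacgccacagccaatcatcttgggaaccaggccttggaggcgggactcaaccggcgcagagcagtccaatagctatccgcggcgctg
This motif was found in 8 of the 21 windows of the 19 S phase genes that have one (38.1%), in 1 of 18 windows of mitosis genes (5.56%) and in 4.28% of all windows. The cell cycle homology region TTTGAA, a short element of mitotic promoters, was in 7 of the 18 mitosis windows (38.9%), 2 of the 21 S phase windows (9.52%) and 16.0% of all windows.

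Ribosome biogenesis genes were modestly higher and cytosolic ribosomal protein genes modestly lower. Over all genes, 32.8% were called higher and 17.6% lower. Of 23 biogenesis factors 15 were higher and none was lower (median 0.35), with the nucleolar proteins Npm1 (0.39 ± 0.08) and Dkc1 (0.46 ± 0.10) first by p. Npm1 was at 783, 890.1, 919.8 and 872 TPM against 680.3, 593, 633 and 742 TPM. The count moved with the libraries: it was 9 without LC-DTR samples 2 and 3, 5 without LC-DTA samples 3 and 4 and 21 without LC-DTR samples 1 and 4. Of 25 genes for proteins of the cytosolic ribosome 19 were lower and none was higher (median -0.25). Rpl3 was at 1147, 1096, 1112 and 1122 TPM in LC-DTA and 1321, 1437, 1360.2 and 1407 TPM in LC-DTR samples (-0.30 ± 0.06). That count was 3 without LC-DTA samples 3 and 4 and 7 with quantile normalization.

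Genes of recruited monocytes and the chemokines that draw them were higher in LC-DTA ears. Ccr2, the receptor by which inflammatory monocytes follow Ccl2, was at 30.5, 42.9, 40.1 and 38.0 TPM in LC-DTA and 8.30, 4.54, 5.50 and 7.40 TPM in LC-DTR ears (2.41 ± 0.17, adjusted p = 1.36e-05). Ly6c2, the surface marker of these monocytes and a near-copy of Ly6c1, was at 37.7, 63.9, 51.2 and 42.1 TPM against 6.00, 4.08, 2.51 and 6.45 TPM (3.14 ± 0.24). Both are among the 15 largest increases, for which the naming rule required groups that did not overlap. For both, the lowest LC-DTA sample was well above the highest LC-DTR sample. Plac8 (2.99 ± 0.30) and Ms4a4c (2.66 ± 0.20), both high in Ly6c-positive monocytes, and the interferon-induced membrane protein Ifitm6 (2.79 ± 0.22) were among the 15 largest increases. Plac8 was at 133, 138, 113 and 86.2 TPM against 22.6, 10.9, 7.20 and 19.4 TPM.

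Of 21 tested monocyte and macrophage genes 14 were higher and 1 lower (median 0.87), against 32.8% and 17.6% of all genes. Ms4a7 (0.98 ± 0.10) and F13a1 (0.96 ± 0.10), which tissue macrophages express, were higher too. The lower gene was Retnla, a product of alternatively activated macrophages, at 3.34, 6.70, 18.6 and 6.44 TPM against 38.9, 15.3, 27.5 and 60.6 TPM (-1.97 ± 0.48); the groups overlapped, and the adjusted p was 0.0576 without LC-DTR samples 1 and 4. The summed level of the list was 1138 to 1279 TPM in LC-DTA and 688 to 910.4 TPM in LC-DTR croton oil ears. Under vehicle 12 of the 21 were already higher, against 19.2% of all genes, and none was lower. Ccr2 was not among them, at 5.47, 5.24 and 6.51 TPM in LC-DTA and 8.87, 5.58 and 7.31 TPM in LC-DTR vehicle ears, and its difference of differences was 2.68 (adjusted p = 7.77e-05). Ms4a7 differed by 0.9951 under vehicle (adjusted p = 0.00274), with a difference of differences of -0.02 (adjusted p = 0.968). The count of lower genes was 2 without LC-DTA replicate 1 or without LC-DTR samples 2 and 3.

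Ccl24 (chr5:135569937-135573049), an eosinophil-attracting chemokine made by macrophages, had the largest increase of all named genes. It was at 26.9, 63.2, 49.3 and 49.5 TPM in LC-DTA and 4.81, 2.69, 3.98 and 3.25 TPM in LC-DTR samples, 10.01-fold higher on the TPM + 1 scale (3.32 ± 0.24, adjusted p = 1.45e-05). It was higher under vehicle as well (1.69, adjusted p = 0.00241), and the difference of differences was 1.64 (adjusted p = 0.0133). Of 21 tested CC and other chemokines, 12 were higher and 3 lower (median 0.46), against 32.8% and 17.6% of all genes. The monocyte attractants Ccl12 (2.01 ± 0.23), Ccl7 (1.76 ± 0.26) and Ccl2 (1.59 ± 0.19) were higher, Ccl2 at 403, 519, 466 and 483 TPM against 204, 117, 119 and 199.9 TPM. So was Cxcl12 (1.10 ± 0.14), a stromal chemokine. The lower ones were Ccl27a (-1.30 ± 0.20), a keratinocyte chemokine for skin T cells, Cxcl16 (-0.63 ± 0.14) and Cxcl10 (-0.54 ± 0.16), of which Cxcl10 overlapped between groups and lost its call without LC-DTA replicate 3 (adjusted p = 0.0501) or LC-DTR replicate 3 (adjusted p = 0.0517).

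The chemokines and growth factors that act on neutrophils were split, with 3 of 12 higher and 4 lower, against 32.8% and 17.6% of all genes. Cxcl2, an early neutrophil attractant, was at 14.2, 17.5, 26.3 and 22.2 TPM in LC-DTA and 68.5, 73.5, 57.1 and 99.6 TPM in LC-DTR ears (-1.85 ± 0.20, adjusted p = 9.62e-05). Cxcl5, another ligand of the same receptor, was at 8.14, 23.0, 11.8 and 13.9 TPM against 1.88, 1.63, 1.37 and 2.56 TPM, a difference in the opposite direction (2.34 ± 0.25). Both sets of samples were separate. Csf2, the granulocyte-macrophage factor, was lower (-1.33 ± 0.12), and Csf1, the macrophage factor, was higher (0.70 ± 0.13), as was the platelet chemokine Ppbp (0.57 ± 0.10). In vehicle ears Cxcl2 was at 4.33, 2.68 and 4.51 TPM in LC-DTA and 13.8, 20.9 and 0.925 TPM in LC-DTR. Without LC-DTR vehicle replicate 3, Cxcl2 (-1.92, adjusted p = 0.000536) and Csf2 (-1.81, adjusted p = 0.00337) were called lower under vehicle. Their differences of differences were then 0.07 and 0.48, in place of -1.01 and -0.17, called in neither case. Of the 12, 1 was lower under vehicle, and 5 without that replicate.

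Of 17 tested neutrophil genes 5 were higher and 4 lower (median 0.15), against 32.8% and 17.6% of all genes. Cd177 (3.83, 4.79, 4.95 and 4.21 TPM against 0.641, 0.463, 0.365 and 0.681 TPM, 1.82 ± 0.11), Trem1 (1.24 ± 0.25) and the growth factor receptor Csf3r (0.87 ± 0.20) were higher. The decoy interleukin-1 receptor Il1r2, which also counts among the lower interleukin-1 genes below, was lower without overlap (-1.02 ± 0.11). Its level is not particular to neutrophils here: in vehicle ears Il1r2 was at 184, 189 and 192 TPM in LC-DTA and 189, 196 and 227 TPM in LC-DTR. Csf3r was at 0.412 to 1.63 TPM in those ears. Lcn2 (-0.83 ± 0.28), Retnlg (-0.83 ± 0.24) and Stfa2l1 (-0.75 ± 0.27) were lower, with overlapping groups. Retnlg was at 16.4, 18.1, 24.8 and 15.5 TPM in LC-DTA and 46.0, 30.1, 20.6 and 43.4 TPM in LC-DTR samples, where LC-DTR samples 1 and 4 were the highest, and lost its call without them, as did Stfa2l1 (-0.23, adjusted p = 0.268); for Retnlg the adjusted p was then 0.123. Without LC-DTR samples 1 and 4, 9 neutrophil genes were higher and 1 lower; without LC-DTR samples 2 and 3, 4 were higher and 6 lower. Leaving out LC-DTA replicate 2 or 4 or LC-DTR replicate 1 or 4 alone left 2 lower. The summed list ran from 669 to 1304 TPM within LC-DTR and from 778 to 1032 TPM within LC-DTA.

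Interleukin genes went both ways in both families listed, against 32.8% of all genes called higher and 17.6% lower. Of 15 interleukin-1 and interleukin-36 genes 7 were higher and 7 lower: the inflammasome protease Casp1 (0.70 ± 0.09) and the alarmin Il33 (0.93 ± 0.15) were higher, and Il18 (-0.74 ± 0.12) and the interleukin-36 receptor antagonist Il1f5 (-0.45 ± 0.08) were lower. Il33 was at 48.9, 66.0, 53 and 47.0 TPM against 28.7, 26.1, 35.5 and 21.2 TPM. Of 21 interleukin-6 and interleukin-10 family genes 9 were higher and 5 lower, the 9 falling to 5 without LC-DTA samples 3 and 4. Oncostatin M (Osm) was at 10.7, 12.5, 11.1 and 11.7 TPM in LC-DTA and 4.29, 2.96, 2.54 and 5.42 TPM in LC-DTR ears (1.42 ± 0.17, adjusted p = 0.000161), and Il10ra was higher by 1.08 ± 0.14. All 5 lower genes were receptor subunits: Il20ra (-1.19 ± 0.13), Il22ra1 (-0.91 ± 0.12), Il20rb (-0.80 ± 0.13), Il6ra (-0.68 ± 0.07) and Lifr (-0.61 ± 0.14).

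Of 19 tested pattern recognition receptors 12 were higher and 1 lower (median 0.54), against 32.8% and 17.6% of all genes. The fungal lectin receptors Clec7a (dectin-1, 1.98 ± 0.25) and Clec4n (dectin-2, 1.89 ± 0.16) led, with Clec4n at 20.6, 27.2, 18.2 and 22.8 TPM in LC-DTA and 5.05, 4.32, 7.51 and 4.38 TPM in LC-DTR samples. Clec5a (0.89 ± 0.11), Tlr2 (0.86 ± 0.12) and Tlr8 (0.72 ± 0.11) were higher as well. Nod1, a cytosolic sensor of bacterial peptidoglycan, was lower (-0.47 ± 0.08). With a filter of 5 TPM 7 were higher, since fewer were then tested, and the count of lower genes was 2 without LC-DTR replicate 3 and 3 without LC-DTR samples 2 and 3.

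Interferon-stimulated genes were higher in LC-DTA ears at low absolute levels. Of 26 tested, 19 were higher and 1, Cxcl10, was lower (median 0.72), against 32.8% and 17.6% of all genes. Oas1a, an antiviral enzyme that makes an RNase activator and has close copies in its cluster, was at 3.53, 4.32, 3.55 and 2.34 TPM against 1.11, 0.590, 0.586 and 0.826 TPM (1.31 ± 0.15, adjusted p = 0.000143). Bst2, the tetherin that holds budding virus, was at 26.9, 31.3, 32.9 and 26.9 TPM against 15.3, 12.9, 17.4 and 16.6 TPM (0.89 ± 0.10). Neither overlapped between groups. Oas2 (1.38 ± 0.18), Oas3 (1.15 ± 0.17) and Mx1 (1.14 ± 0.16) followed. With a filter of 5 TPM 5 were called higher, since fewer of the list were then tested. Under vehicle 5 of the 26 were higher, against 19.2% of all genes, and none lower; without LC-DTR vehicle replicate 3, in which Bst2 was 38.7 TPM against 18.5 and 14.3 TPM in the other 2, 16 were.

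The promoters of Oas1a, Oas3 and Bst2 are shown because these 3 called genes carry the interferon-stimulated response element, read as GAAA, any 2 bases and GAAA. The windows cover the 250 bases before the start, from RefSeq on GRCm38.p6, at chr5:120907526-120907775 on the minus strand, chr5:120777660-120777909 on the minus strand and chr8:71537473-71537722 on the minus strand. The element on either strand is in capitals, and in Oas1a and Bst2 the capitals join 2 overlapping matches.
Oas1a: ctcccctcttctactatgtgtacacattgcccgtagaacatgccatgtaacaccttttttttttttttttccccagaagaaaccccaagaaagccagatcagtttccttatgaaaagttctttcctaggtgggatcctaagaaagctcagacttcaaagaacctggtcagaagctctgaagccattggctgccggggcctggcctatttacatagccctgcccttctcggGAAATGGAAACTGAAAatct
Oas3: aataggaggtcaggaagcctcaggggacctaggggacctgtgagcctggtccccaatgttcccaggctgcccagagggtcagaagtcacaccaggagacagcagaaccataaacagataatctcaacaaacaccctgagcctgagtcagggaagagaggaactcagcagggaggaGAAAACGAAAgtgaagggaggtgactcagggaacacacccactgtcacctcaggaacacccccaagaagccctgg
Bst2: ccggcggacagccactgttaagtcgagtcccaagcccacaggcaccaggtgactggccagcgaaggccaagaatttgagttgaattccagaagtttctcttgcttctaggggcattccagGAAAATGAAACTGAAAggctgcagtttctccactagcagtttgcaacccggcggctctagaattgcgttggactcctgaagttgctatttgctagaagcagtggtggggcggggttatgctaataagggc
The element was found in 11 of the 22 windows of the 19 listed interferon-stimulated genes with a window and in 2.98% of all windows. Cxcl10, the gene of the list that was lower, is among the 11.

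Keratinocyte stress genes and the stefins varied within LC-DTR as well as between genotypes. Krt6b, a keratin of wounded epidermis with a close copy in Krt6a, was at 91.9, 148, 113 and 51.7 TPM in LC-DTA and 24.6, 4.82, 8.82 and 26.0 TPM in LC-DTR ears (2.76 ± 0.49, adjusted p = 0.00138). LC-DTR samples 2 and 3 were lower than samples 1 and 4, and all 4 were below the lowest LC-DTA sample, as the naming rule required. Krt6a was higher by 0.52 ± 0.10, at 726, 749, 713 and 589 TPM against 543, 437, 434 and 518 TPM. Has3, which makes hyaluronan, was at 33.1, 54.1, 62.5 and 30.5 TPM against 6.28, 1.58, 4.09 and 6.88 TPM (3.07 ± 0.35). The serine protease inhibitor Serpinb3a was higher (2.08 ± 0.21), and the constitutive defensin Defb1 was lower, at 128, 119, 111 and 157 TPM against 392, 404, 299 and 425 TPM (-1.56 ± 0.13). Of 26 stress and antimicrobial genes 12 were higher and 4 lower, against 32.8% and 17.6% of all genes. The counts were 7 and 9 without LC-DTR samples 2 and 3, 15 and 1 without LC-DTR samples 1 and 4, and 7 and 1 without LC-DTA samples 1 and 2. Leaving out LC-DTA replicate 4 or LC-DTR replicate 1 or 4 alone left 1 lower, and LC-DTA replicate 2 left 2.

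Stefins are cysteine protease inhibitors of cornifying epidermis and neutrophils, encoded by near-identical genes on chromosome 16 whose reads may be shared. Of 10 tested 5 were higher and 2 lower (median 0.97), against 32.8% and 17.6% of all genes. Stfa3 was at 267, 313, 303 and 193 TPM in LC-DTA and 79.0, 49.3, 75.6 and 77.0 TPM in LC-DTR ears (1.92 ± 0.18), and BC100530 at 230.1, 239, 241 and 136 TPM against 49.9, 10.8, 29.2 and 61.8 TPM (2.66 ± 0.45). Stfa1 (2.36 ± 0.34) and BC117090 (2.22 ± 0.25) were higher too. Csta1 (-0.75 ± 0.09), like Stfa2l1, was lower. The 5 higher calls were 5 in number under every alternative, whereas the 2 lower ones ranged from 1 to 3, with 1 left without LC-DTA replicate 2 or 4 or LC-DTR replicate 1 or 4 alone.

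Among differentiation and early response genes more were called lower than higher. Loricrin (Lor), a main protein of the cornified envelope, was at 3013, 2439.9, 2673 and 2781 TPM in LC-DTA and 4861, 4864, 5704 and 4839 TPM in LC-DTR ears (-0.89 ± 0.09, adjusted p = 6.68e-05). Of 19 differentiated keratinocyte genes 8 were lower and 2 higher (median -0.18), against 17.6% and 32.8% of all genes. Hrnr (-0.77 ± 0.13), Sbsn (-0.42 ± 0.07) and Krtdap (-0.40 ± 0.07) were lower, and Tgm3 (0.92 ± 0.15) and the late keratin Krt2 (0.56 ± 0.12) were higher. Under vehicle 11 of the 19 were lower, against 5.50% of all genes, and none was higher.

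Among genes that damp MAP kinase signalling 8 of 17 were lower and 2 higher, against 17.6% and 32.8% of all genes. Dusp14, a phosphatase, was at 148, 150.3, 141 and 162 TPM against 328, 290.3, 265 and 326 TPM (-0.9996 ± 0.08), with Dusp8 (-0.74 ± 0.08), Spry2 (-0.37 ± 0.07) and Dusp5 (-0.36 ± 0.08) also lower. Dusp10 (0.46 ± 0.11) and Dusp6 (0.50 ± 0.14) were higher; the call of Dusp6 was lost without LC-DTA samples 3 and 4 (adjusted p = 0.0711). Of 25 AP-1 and immediate early genes 10 were lower and 2 higher, against the same shares. Jun was at 128, 110.4, 104 and 133 TPM in LC-DTA and 221, 195, 237 and 228 TPM in LC-DTR samples (-0.89 ± 0.09, adjusted p = 7.8e-05). The antiproliferative gene Btg2 (-0.86 ± 0.10), Maff (-0.75 ± 0.09) and Klf4 (-0.62 ± 0.09) were lower. The higher members were Batf (1.02 ± 0.15), an AP-1 factor of lymphocytes and myeloid cells, and Fosl1 (0.46 ± 0.14), whose call was lost without LC-DTR replicate 3 (adjusted p = 0.0543).

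Matrix genes were higher in LC-DTA ears whether or not croton oil was applied. Of 19 collagens 17 were higher after croton oil (median 1.29) and 17 under vehicle (median 1.02), against 32.8% and 19.2% of all genes, none being lower in either. Col3a1, the fibrillar collagen of soft dermis, was at 1325, 1626, 1068 and 1043 TPM in LC-DTA and 196, 379.5, 353 and 198 TPM in LC-DTR croton oil ears (2.21 ± 0.24, adjusted p = 9.56e-05). Under vehicle it was at 1822, 1629 and 2319 TPM and 329, 272 and 1317 TPM (1.95, adjusted p = 0.00801), with LC-DTR vehicle replicate 3 far above the other 2. Col14a1 (1.85 ± 0.15), Col12a1 (1.84 ± 0.16), Col6a3 (1.82 ± 0.16) and Col15a1 (1.79 ± 0.19) were the other large increases. The summed collagen level was 4657 to 6276 TPM in LC-DTA and 2088 to 2860.2 TPM in LC-DTR croton oil ears, and 6946 to 9339 and 2787 to 5415 TPM in the vehicle ears.

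Of 18 fibroblast genes 15 were higher (median 0.78), among them Postn (1.13 ± 0.09), Fn1 (1.55 ± 0.16), Lum (1.24 ± 0.15) and Dpt (0.79 ± 0.11), and 14 were higher under vehicle, against 19.2% of all genes. Of 24 matrix proteases and inhibitors 10 were higher and 3 lower, against 32.8% and 17.6% of all genes. Under vehicle 14 of the 24 were higher and none lower (1 lower without LC-DTR vehicle replicate 3), against 19.2% and 5.50%. A negative difference of differences was called for 8 (7 without LC-DTR vehicle replicate 3), against 12.7% of all genes. The stromelysin Mmp3 was at 708, 845, 763 and 630.3 TPM in LC-DTA and 141, 103, 106 and 144 TPM in LC-DTR croton oil ears (2.58 ± 0.13, adjusted p = 6.14e-06). Its vehicle levels were 255, 176 and 205 TPM and 35.998, 44.1 and 50.8 TPM (2.25, adjusted p = 1.96e-05), and the difference of differences was 0.33 (adjusted p = 0.306), which was not called. Mmp10 (1.22 ± 0.10), Adamts5 (0.80 ± 0.12) and the protease inhibitor Timp1 (2.29 ± 0.30) were higher. Timp4 (-0.86 ± 0.11), Mmp11 (-0.91 ± 0.19) and the plasminogen activator Plat (-0.41 ± 0.11) were lower; Plat lost its call without LC-DTR samples 1 and 4 (adjusted p = 0.0694) and was higher under vehicle (0.97, adjusted p = 0.000312), and its difference of differences was -1.38 (adjusted p = 0.00014). Tenascin C (Tnc), a matrix glycoprotein of wounds that is outside these lists, was among the 15 largest increases, at 86.4, 147, 136 and 105 TPM against 24.7, 12.5, 21.7 and 17.9 TPM (2.58 ± 0.21).

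Most sterol synthesis genes and 10 of 18 unfolded protein response genes were higher after croton oil. Of 22 cholesterol and oxysterol genes 16 were higher and 3 lower (median 0.57), against 32.8% and 17.6% of all genes. Under vehicle 3 were higher and 1 lower (2 without LC-DTR vehicle replicate 3). A positive difference of differences was called for 12 (7 without LC-DTR vehicle replicate 3), against 10.9% of all genes. Idi1, the isopentenyl isomerase, was at 88.2, 109.9, 96.0 and 106 TPM against 44.2, 45.6, 52.9 and 48.7 TPM (1.05 ± 0.08, adjusted p = 2.25e-05). Fdps (0.75 ± 0.07), Cyp51 (0.54 ± 0.06), Nsdhl (0.84 ± 0.09) and Mvd (0.85 ± 0.10), all of the same synthesis route, were higher. The lower ones were the sterol exporters Abcg1 (-0.69 ± 0.10) and Abca1 (-0.58 ± 0.10), and Dhcr7 (-0.37 ± 0.07), the last enzyme of the route.

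Of 18 unfolded protein response genes 10 were higher and 4 lower (median 0.35), against 32.8% and 17.6% of all genes. The higher ones first by p, which work in the lumen of the endoplasmic reticulum, were Creld2 (60.8, 60.0, 66.4 and 60.9 TPM against 32.2, 31.5, 34.97 and 31.8 TPM, 0.91 ± 0.06), Sdf2l1 (1.19 ± 0.09), Calr (0.87 ± 0.07), Hsp90b1 (0.83 ± 0.08) and Pdia6 (0.73 ± 0.07). The 4 lower were Herpud1 (-0.68 ± 0.07), Atf3 (-0.63 ± 0.12), Trib3 (-0.59 ± 0.09) and Dnajb9 (-0.31 ± 0.09), of which Atf3 lost its call with all 14 samples in the fit (adjusted p = 0.205) and Dnajb9 without LC-DTR replicate 2 (adjusted p = 0.0508).

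**Figure D3:**
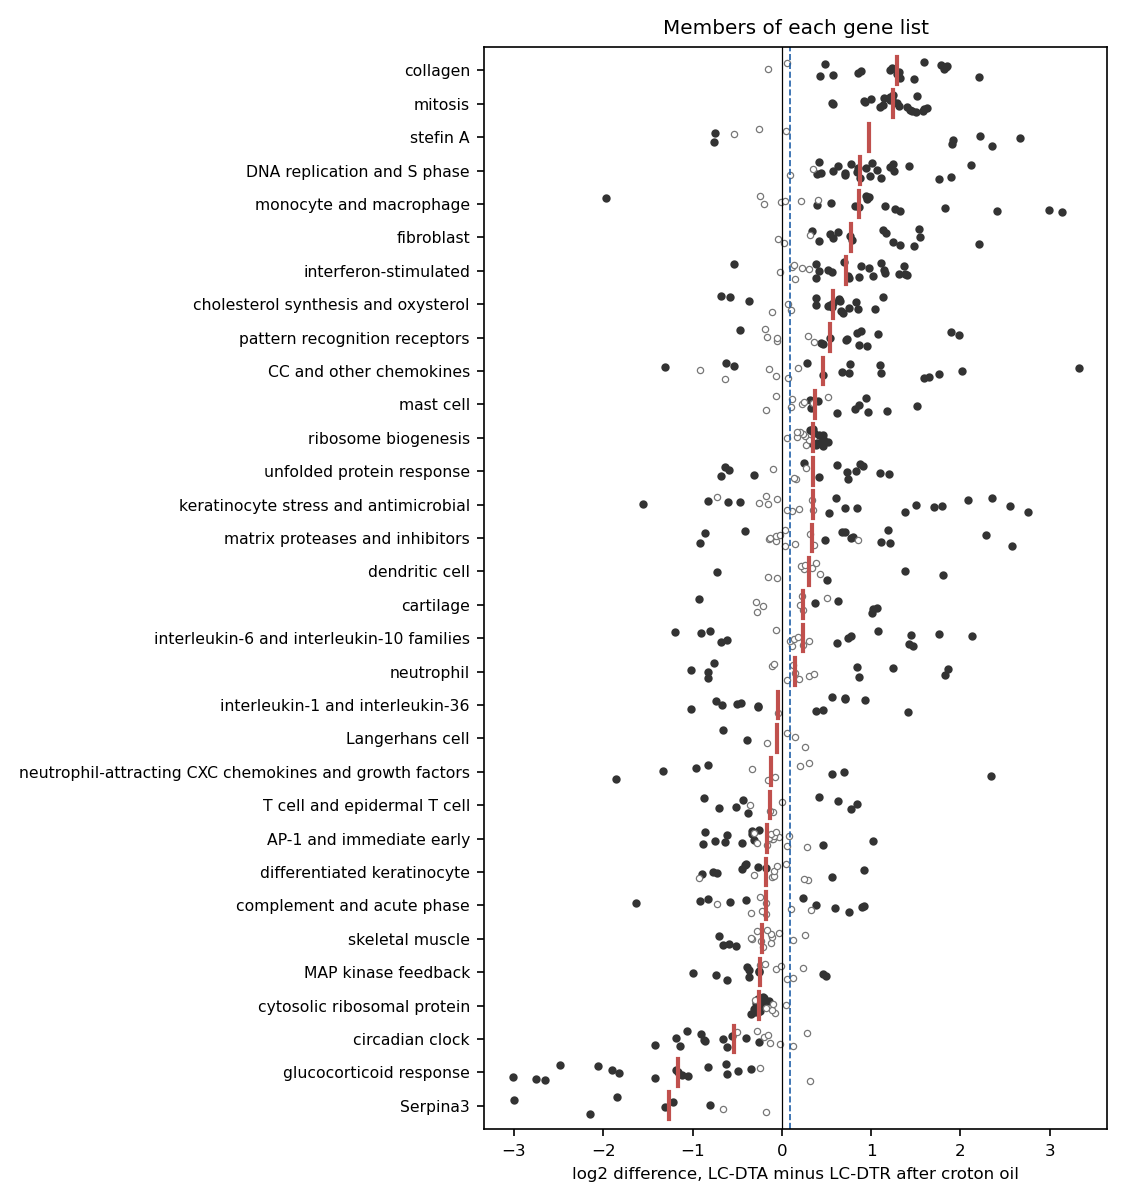
Log2 difference after croton oil (horizontal axis) of every tested member of 32 gene lists (rows, ordered by median); filled points were called, open points were not, red bars are list medians and the dashed line is the median of all 14090 genes, 0.09. Medians run from -1.26 (Serpina3) and -1.17 (glucocorticoid response) to 1.24 (mitosis) and 1.29 (collagen).

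Markers of resident cell types were read in the same samples, against 32.8% of all genes called higher and 17.6% lower. Mast cell genes were higher in 10 of 18 and lower in none (median 0.37), with a summed level of 811 to 1063 TPM in LC-DTA and 594 to 735 TPM in LC-DTR croton oil ears. The chymase Cma1 was at 113, 133, 118 and 128 TPM against 68.4, 58.1, 76.4 and 50.6 TPM (0.96 ± 0.12), and Mcpt4 (1.17 ± 0.19), Cpa3 (0.62 ± 0.14) and Mrgprb1 (1.52 ± 0.17), which has close copies, were higher. The tryptase Tpsb2 was at 39.7, 44.5, 33.9 and 35.4 TPM against 50.6, 36.3, 52.9 and 36.1 TPM, in overlapping groups, and was not called (-0.18 ± 0.14, adjusted p = 0.318). Under vehicle 12 mast cell genes were higher and 1 lower, against 19.2% and 5.50% of all genes. Mrgprb2, the receptor through which mast cells respond to basic peptides, was at 1.86, 3.02, 2.98 and 3.71 TPM in LC-DTA and 1.96, 3.45, 2.93 and 2.10 TPM in LC-DTR croton oil ears and was not called (0.11 ± 0.18, adjusted p = 0.639); its sign turned under 3 alternatives. In vehicle ears it was higher in LC-DTA (0.88, adjusted p = 0.00437). Kit (0.33 ± 0.12) lost its call on leaving out LC-DTA replicate 2, 3 or 4 or LC-DTR replicate 1, 2 or 4, for example LC-DTA replicate 2 (adjusted p = 0.122). Mrgprd, a receptor of sensory neurons, was at or below 0.0408 TPM in every croton oil sample.

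The 8 Langerhans cell markers, most of which keratinocytes or other cells also express, gave 2 lower and no higher calls among the 6 tested, among them that of Cldn1 (-0.66 ± 0.10). Epcam (-0.16 ± 0.08), Cd74 (0.26 ± 0.20) and Mfge8 (0.15 ± 0.13) were not called, although Epcam (adjusted p = 0.0281) and Mfge8 (adjusted p = 0.0387) were without LC-DTR samples 2 and 3. Of 12 dendritic cell genes 3 were higher and 1 lower, with Cd209a, a marker of monocyte-derived and dermal dendritic cells, at 15.4, 36.3, 32.0 and 26.6 TPM against 9.05, 5.03, 6.54 and 7.10 TPM (1.81 ± 0.24) and the migration gene Ccr7 lower (-0.73 ± 0.23) in overlapping groups; Ccr7 lost its call without LC-DTA replicate 2 or 4 or LC-DTR replicate 1 or 4 (adjusted p = 0.0552 to 0.0662). Without LC-DTA replicate 1, 6 of the 12 were higher. Of 13 T cell genes 4 were higher, led by Cd4 (0.78 ± 0.11) and Thy1 (0.84 ± 0.14), and 5 lower, led by Tigit (-0.87 ± 0.16). The count of lower genes was 1 without LC-DTA samples 1 and 2, and 3 without LC-DTR samples 2 and 3 or LC-DTR samples 1 and 4. Over all genes, 32.8% were called higher and 17.6% lower.

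Skeletal muscle genes, Atp2a1 (-0.70 ± 0.19) among them, were lower in 4 of 16, against 17.6% of all genes, and higher in none. That count was 12 without LC-DTA samples 3 and 4, 0 without LC-DTR samples 1 and 4, 9 without LC-DTA replicate 3 alone, and 2 without any one of LC-DTA replicates 1, 2 and 4 and LC-DTR replicates 1 and 4. Of 13 cartilage genes 5 were higher and 1 lower, against 32.8% and 17.6% of all genes. Col9a1 (1.06 ± 0.20) and Matn3 (1.02 ± 0.15) were higher and Chad was lower (-0.93 ± 0.22). The count of higher cartilage genes was 2 without LC-DTA samples 1 and 2 and 3 without LC-DTR samples 1 and 4. It was also 3 without LC-DTA replicate 1 or 2 or LC-DTR replicate 4 alone. Under vehicle 7 were higher (4 without LC-DTR vehicle replicate 3), against 19.2% of all genes, and none lower. The summed muscle level was 3201 to 5409 TPM in LC-DTA and 4536 to 5327 TPM in LC-DTR croton oil ears, and its part in the other results was not tested.

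**Figure D4:**
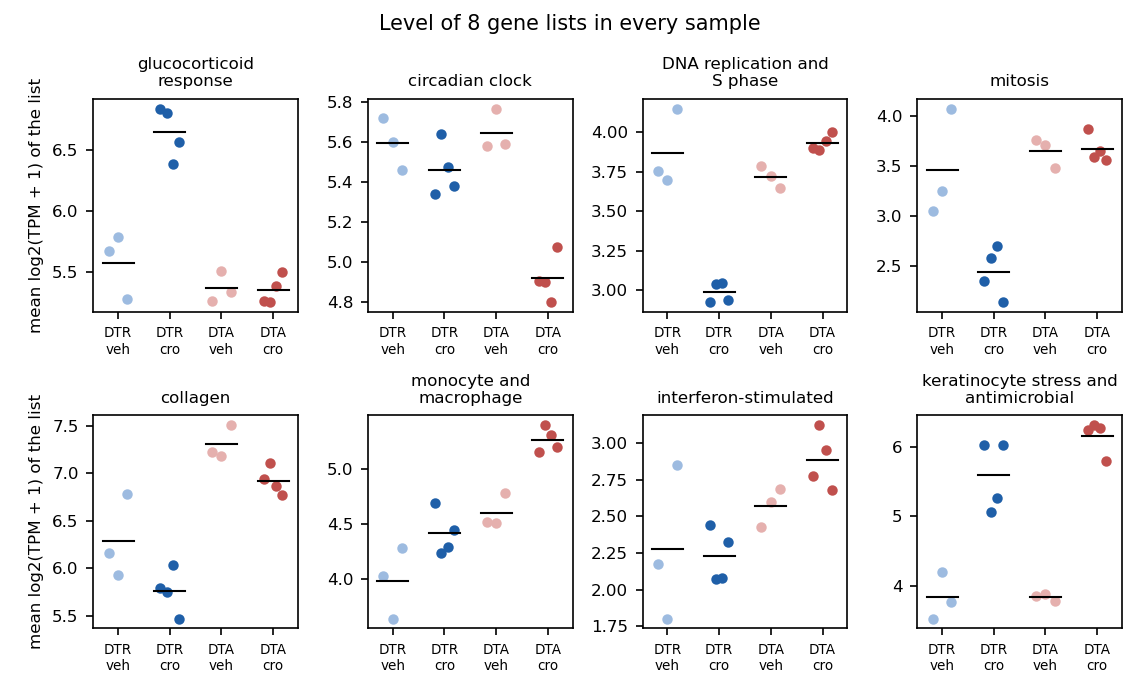
Mean log2(TPM + 1) over the members of 8 gene lists (vertical axis) in every sample of the 4 groups (DTR veh, LC-DTR vehicle; DTR cro, LC-DTR croton oil; DTA veh, LC-DTA vehicle; DTA cro, LC-DTA croton oil); points are samples and bars group means. The glucocorticoid response list is highest in LC-DTR croton oil ears (6.39 to 6.83) and the S phase list lowest there (2.92 to 3.05), while collagen is higher in both LC-DTA groups.

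Vehicle ears gave the genotype difference without croton oil. There 3483 of the 14090 genes were called (24.7%), 2708 higher (19.2%) and 775 lower (5.50%). With median ratio scaling 1767 were higher and 1494 lower, and with quantile normalization 1560 and 1722. Genes called in both settings with the same sign numbered 1891, which is 26.6% of the 7102 calls after croton oil and 54.3% of the 3483 calls under vehicle, and 257 were called with opposite signs. Of the 501 genes at least 2-fold higher after croton oil 207 were called higher under vehicle, and of the 215 at least 2-fold lower 51 were called lower. The difference itself differed between the settings for 3323 genes (23.6%), 1529 in the positive (10.9%) and 1794 in the negative direction (12.7%). The vehicle count rests on 3 samples a group: it was 1754 without LC-DTR vehicle replicate 2 and 2070 without LC-DTA vehicle replicate 3, and the count of differences of differences was 2194 without LC-DTA vehicle replicate 2.

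Of 29 reported genes among those with the largest differences after croton oil, 25 had a called difference of differences, against 23.6% of all genes. These genes were picked by their croton oil difference, which enters the difference of differences, so the picking itself favours such calls. The exceptions were Mmp3, Serpina3b and Sptssb, all higher in both settings, and Egr4. Sptssb, a subunit of the first enzyme of sphingolipid synthesis, was at 20.0, 23.4, 10.4 and 3.39 TPM in LC-DTA and 0.553, 0.519, 0.392 and 0.502 TPM in LC-DTR croton oil ears (3.09 ± 0.45) and at 19.5, 7.44 and 7.69 and 0.170, 0.777 and 0.203 TPM in the vehicle ears (3.08). Egr4 was at 2.50, 2.02 and 2.96 TPM in LC-DTA and 15.4, 20.9 and 0.122 TPM in LC-DTR vehicle ears, LC-DTR replicate 3 being the low one; without it Egr4 was called lower under vehicle too (-2.45, adjusted p = 4.66e-05), and its difference of differences was 0.18 in place of -1.18, called in neither case. Tdh (2.68 ± 0.19), a threonine dehydrogenase, and the aldehyde oxidase Aox4 (2.53 ± 0.17) had differences of differences of 2.16 and 1.64. For Tdh the LC-DTR vehicle levels were 1.74, 2.69 and 16.6 TPM, and the vehicle difference was 0.52 with all 3 and 1.34 without replicate 3.

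**Figure D5:**
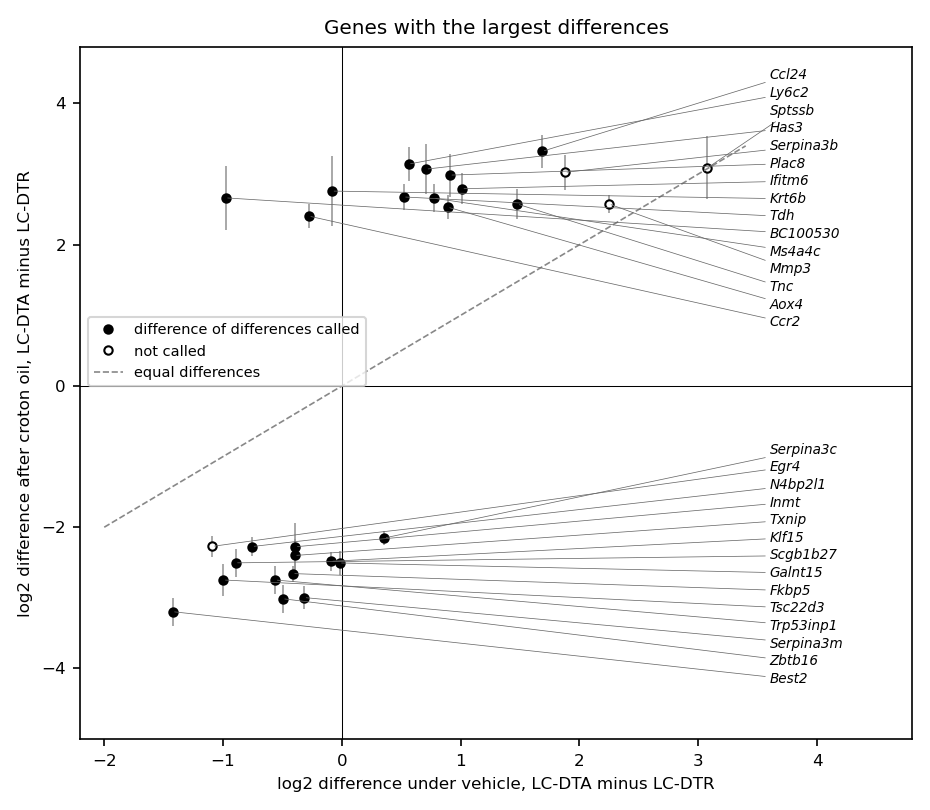
Log2 difference after croton oil (vertical axis, bars are SE) against that under vehicle (horizontal axis), LC-DTA minus LC-DTR, for the 15 genes with the largest increases and 14 of the 15 with the largest decreases; filled points had a called difference of differences and the dashed line marks equal differences. Zbtb16, Fkbp5 and Klf15 lie between -0.50 and -0.09 on the vehicle axis, and without LC-DTR vehicle replicate 3 at -0.76, -0.76 and -0.35, and Sptssb lies on the dashed line.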

How the data were processed

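Poly(A) libraries were made from whole ear RNA (Qiagen RNeasy, Illumina TruSeq Stranded mRNA), per the labels' protocols. The mm10 build and the tools cutadapt, HISAT2, featureCounts and Subread are named in the submitters' processing notes. The authors deposited TPM values per gene, which sum to the same total in each sample and keep no depth. How the TPM were computed, the annotation and the strand setting were not stated in the sources used here. Of 24062 rows, 27 carry dates in place of gene symbols (0.124% to 0.145% of each sample's total) and were not tested.

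Values were taken as log2(TPM + 1). Genes with at least 1 TPM in at least 4 of the 8 croton oil samples were tested with limma 3.58.1 (R 4.3.3, trended variance, 2-sided), LC-DTA against LC-DTR over these 8 samples, with Benjamini-Hochberg adjustment over all genes tested. The vehicle difference and the difference of differences came from 1 fit of all 14 samples on the same genes. The code was tested on simulated data. Standard errors are those of the fit.

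The named genes were the 15 largest increases and 15 largest decreases among called genes whose mean reached 5 TPM in 1 group and whose groups did not overlap, passing over predicted genes, unnamed clones and ribosomal pseudogenes. To these came up to 5 members of each described list with the lowest p (2 for the lists of the closing section), list members called against the direction of most of their list, and Cd207, the receptors Mrgprd, Mrgprb2 and Kit, and the mast cell proteases Tpsb2, Mcpt4, Cma1 and Cpa3. Not all genes that this rule named are described here. Members, lists and motifs were chosen with earlier results of these data known. The difference of differences of Cry2, Plat, Ms4a7, Cxcl2 and Csf2, and the values without LC-DTR vehicle replicate 3 or without LC-DTR samples 1 and 4, were added after seeing the data.

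Gene positions are from GENCODE M21 (GRCm38), and promoter windows from RefSeq (GRCm38.p6). Motifs were searched as exact letters, with N any base, on both strands of the 250 bases before each start. Alternatives changed the pseudocount, the filter, the scaling, the variance model, the samples in the fit and the replicate block, 1 at a time.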

Additional observations from a re-analysis of the deposited data

Results flagged for a closer look

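In 16 of the 442 groups of 4 croton oil samples examined (221 named genes, 2 groups each), 1 sample lay farther from the others than the 95% limit of Dixon's test; chance alone gives about 1 group in 20. In LC-DTA croton oil sample 1, Rpl10a was 1267 TPM against 1044 to 1073 TPM, Rpl4 was 2298 TPM against 2129 to 2153 TPM and Timp4 was 9.81 TPM against 10.5 to 10.6 TPM in the other 3 samples of its group. In LC-DTA croton oil sample 2, BC117090 was 21.95 TPM against 9.79 to 11.5 TPM in the other 3 samples of its group. In LC-DTA croton oil sample 3, Creld2 was 66.4 TPM against 60.0 to 60.9 TPM in the other 3 samples of its group. In LC-DTA croton oil sample 4, BC100530 was 136 TPM against 230.1 to 241 TPM, Cry2 was 37.1 TPM against 31.0 to 31.6 TPM and Cldn1 was 362 TPM against 311 to 317 TPM in the other 3 samples of its group. In LC-DTR croton oil sample 1, Batf was 3.25 TPM against 1.57 to 1.84 TPM and Aloxe3 was 183 TPM against 155 TPM in the other 3 samples of its group. In LC-DTR croton oil sample 2, Il6ra was 161 TPM against 138 to 141 TPM, Stfa3 was 49.3 TPM against 75.6 to 79.0 TPM and Klf4 was 1002 TPM against 802 to 829 TPM in the other 3 samples of its group. In LC-DTR croton oil sample 3, Lor was 5704 TPM against 4839 to 4864 TPM, Mvd was 60.0 TPM against 47.3 to 49.2 TPM and Mrgprd was 0.00935 TPM against 0 TPM in the other 3 samples of its group.

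The genotype difference after croton oil differed from that under vehicle for 27 of the 35 genes tested for it one by one, by a test of the difference itself (limma, adjusted over all 14090 genes). Over all genes the share was 23.6%. Of the 35, 29 were picked by their croton oil difference, which favours such calls. On the log2 scale, the difference in croton oil ears minus that in vehicle ears was 1.64 for Ccl24, 2.58 for Ly6c2, 2.36 for Has3, 2.08 for Plac8, 1.78 for Ifitm6, 2.84 for Krt6b and 2.16 for Tdh. It was 3.64 for BC100530, 1.88 for Ms4a4c, 1.10 for Tnc, 1.64 for Aox4 and 2.68 for Ccr2. In the negative direction it was -1.77 for Best2, -2.51 for Zbtb16, -2.68 for Serpina3m, -2.19 for Trp53inp1, -1.75 for Tsc22d3, -2.24 for Fkbp5, -2.49 for Galnt15 and -1.61 for Scgb1b27. It was also -2.39 for Klf15, -2.0041 for Txnip, -1.89 for Inmt, -1.52 for N4bp2l1, -2.51 for Serpina3c, -0.78 for Mrgprb2 and -0.77 for Tpsb2. Without LC-DTR vehicle replicate 3, the calls not retained were those of Plac8 (1.41, adjusted p = 0.0777), Tnc (0.87, adjusted p = 0.0906), Mrgprb2 (-0.73, adjusted p = 0.0678) and Tpsb2 (-0.76, adjusted p = 0.0631).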

How the results depend on the processing

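For the 221 named genes, 4633 of 4785 values under the alternatives kept their direction and their side of the threshold, 137 lost the call, 11 gained one and 4 changed sign. The sign changes were Mfge8 without LC-DTR samples 1 and 4 (-0.059) and Mrgprb2 with quantile normalization (-0.077), without LC-DTA samples 3 and 4 (-0.070) and without LC-DTR samples 1 and 4 (-0.126). Neither gene was called, and the cause was not tested.

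Leaving out 1 croton oil sample at a time gave 5840 to 7002 calls after croton oil and 664 to 776 at 2-fold. Under vehicle it gave 1754 to 3604 calls, the lowest without LC-DTR vehicle replicate 2 and 2070 without LC-DTA vehicle replicate 3, and for the difference of differences 2194 to 3490, the lowest without LC-DTA vehicle replicate 2. A pseudocount of 5 left 280 genes at 2-fold (182 higher, 98 lower) in place of 716, since it shrinks the difference of low genes, and a pseudocount of 0.1 gave 1069. Genes lower under vehicle, 775, were 495 without LC-DTA vehicle replicate 1, 409 without LC-DTA vehicle replicate 3 and 367 without LC-DTR vehicle replicate 2. Negative differences of differences, 1794, were 1175 without LC-DTA samples 1 and 2 and 1141 without LC-DTA vehicle replicate 2. The other totals of calls, both directions together, stayed within 1.5 times the reported ones.

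The replicate block gave 6223 calls after croton oil (4052 higher, 2171 lower), 711 at 2-fold, 2794 under vehicle and 2642 differences of differences. Samples with the same number share nothing else in the labels, and their deviations from the group means correlated at -0.19, -0.036, -0.31 and 0.022 across genes, so the numbers do not pair the samples.

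TPM keeps no depth, so counting error is unknown, and differences of genes near 1 TPM are understated.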

Other observations

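Of 19 tested Nrf2 target genes 11 were higher and 5 lower after croton oil, against 32.8% and 17.6% of all genes, with a median of 0.28. The differences reached down to -1.82. The summed level of the list went the other way, at 6053 to 7561 TPM in LC-DTA and 9501 to 15103 TPM in LC-DTR croton oil ears. Gsta4, a glutathione transferase of lipid aldehydes, was at 170.1, 184, 176 and 135 TPM in LC-DTA and 46.9, 21.3, 32.0 and 44.4 TPM in LC-DTR ears (2.23 ± 0.22, limma adjusted p = 5.97e-05), and the glutathione peroxidase Gpx2 was higher by 1.27 ± 0.13. Neither overlapped between groups. The count of 5 was 2 without LC-DTA replicate 1 and 3 without LC-DTA replicate 2 or 3 or LC-DTR replicate 1 or 4, and 3 without LC-DTR samples 1 and 4 or 2 and 3. Of 20 p53 targets 6 were higher and 6 lower, with Sesn1, a stress-induced inhibitor of growth signalling, at 13.3, 11.9, 10.8 and 12.9 TPM against 45.1, 53.4, 39.4 and 40.8 TPM (-1.78 ± 0.10). In vehicle ears Sesn1 was at 39.7, 46.1 and 37.9 TPM and 43.4, 50.6 and 46.8 TPM, so the LC-DTA croton oil ears were the low group. Of 22 respiratory chain genes 11 were higher and 1 lower, led by Ndufs8 (0.54 ± 0.07) and cytochrome c (Cycs, 0.64 ± 0.10); 2 were higher with median ratio scaling, 4 without LC-DTA samples 3 and 4 and 6 without LC-DTR samples 1 and 4.

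Lipid and retinoid genes went both ways, against 32.8% of all genes called higher and 17.6% lower. Plin5, a lipid droplet protein, was at 3.30, 2.05, 1.64 and 2.78 TPM in LC-DTA and 13.6, 14.1, 9.83 and 13.3 TPM in LC-DTR croton oil ears (-2.01 ± 0.16, limma adjusted p = 2.37e-05). The wax ester synthase Awat2 was at 13.6, 12.5, 11.2 and 18.7 TPM against 39.3, 69.0, 74.0 and 51.0 TPM (-1.97 ± 0.21) and was also lower under vehicle (-1.68, adjusted p = 0.00445). These were 2 of 3 lower genes among 16 of the sebaceous gland, where 3 were higher; the higher count ranged from 0 to 6 over the alternatives, at 1 without LC-DTR replicate 4, 5 without LC-DTA replicate 3 and 6 without LC-DTR replicate 3, and the lower count was 5 without LC-DTA replicate 1. Of 15 adipocyte genes 5 were higher, led by the lipase Lpl (0.86 ± 0.11), and 3 lower, led by the lipase Pnpla2 (-0.73 ± 0.08). Both adipocyte counts were close to the shares of all genes. Without LC-DTR replicate 4, 5 adipocyte genes were lower. Of 17 retinoid genes 8 were higher and 3 lower. Aldh1a1, which makes retinoic acid, was at 15.2, 15.8, 16.3 and 19.1 TPM against 39.5, 54.8, 45.1 and 35.97 TPM (-1.34 ± 0.12) and had the opposite sign under vehicle (0.46, adjusted p = 0.0159). Rarres1 differed by -0.46 ± 0.07. Without LC-DTA replicate 1, 5 retinoid genes were lower.

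Of 22 prostaglandin and leukotriene genes 9 were higher and 4 lower, near the 32.8% and 17.6% of all genes. The phospholipase Pla2g4a, which frees arachidonic acid, was at 51.9, 49.7, 51.7 and 61.3 TPM against 28.4, 36.3, 32.7 and 29.1 TPM (0.75 ± 0.09). The epidermal lipoxygenase Aloxe3 was lower (-0.62 ± 0.07). Of 16 TNF superfamily genes 6 were higher and 2 lower, against 32.8% and 17.6% of all genes. Tnfsf14 (0.96 ± 0.15) was among the higher and Tnfsf15 (-1.06 ± 0.10) among the lower. Of 18 endothelial genes 4 were higher and 1 lower, against the same shares of all genes. The leukocyte adhesion molecule Vcam1 was higher (0.97 ± 0.16) and Emcn lower (-0.48 ± 0.09). The endothelial count of 4 was 7 without LC-DTR samples 1 and 4 and 2 without LC-DTA replicate 2 or 3 or LC-DTR replicate 2 or 4, and the lower count was 4 without LC-DTA replicate 1. Under vehicle 8 endothelial genes were higher, against 19.2% of all genes, and 7 had a negative difference of differences, against 12.7%. Of 15 Schwann cell genes 5 were higher, among them Mag (0.54 ± 0.09), and 2 lower, among them the neuregulin receptor Erbb3 (-0.77 ± 0.10). These counts were near 32.8% and 17.6%, the shares of all genes. Leaving out any one of LC-DTA replicates 2, 3 and 4 and LC-DTR replicates 2 and 4 left 2 higher. Leaving out LC-DTA replicate 1 or 3 or LC-DTR replicate 1, 2 or 3 left 1 lower.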
